A study of Homo sapiens with 9 samples.

Results

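Polyamine metabolism is followed here through 10 genes, ODC1, AMD1, SRM, SMS, AZIN1, OAZ1, OAZ2, SAT1, SMOX and PAOX, which were taken by symbol from a table of 60612 genes. Each of the 10 symbols matched 1 row, and all 10 had enough counts to be tested. The cells were MDA-MB-231, a human triple-negative breast cancer line, harvested 48 hours after transfection. One group received MILIP siRNA1, one MILIP siRNA2 and one a negative control siRNA, with 3 libraries in each and 9 in all. MILIP is a long noncoding RNA, listed as MAFG-DT. The groups share the line, the serum-containing medium and the lipid transfection, and differ by the siRNA. MILIP is the target in the title and sample labels, whereas the treatment text speaks of siRNAs to PLANE. Whether replicate libraries were grown as separate cultures is not stated in the labels, so each p-value reflects library-to-library spread alone, and that spread may be technical.

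Polyamines are small positively charged molecules that bind nucleic acids and are needed for growth. Ornithine decarboxylase makes putrescine from ornithine, S-adenosylmethionine decarboxylase supplies aminopropyl groups, and the synthases SRM and SMS add these groups in turn to make spermidine and spermine. Antizymes bind ornithine decarboxylase and send it to the proteasome, and the antizyme inhibitor binds the antizymes in its place. Acetylation by SAT1 and oxidation by SMOX and PAOX take the pathway backwards. Much control in this pathway acts on translation and protein stability, which RNA counts do not show.

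Total gene counts were 15281220 to 19759371 per library, and 15345 genes were tested. Levels within a gene are TMM-scaled counts per 1e+06 counts (CPM), and a gene was called where edgeR's quasi-likelihood test gave a Benjamini-Hochberg adjusted p below 0.05 over all tested genes. MILIP had 19, 11 and 37 counts with siRNA1 and 10, 19 and 6 with siRNA2, against 133, 126 and 148 with the control siRNA. MILIP thus had a log2 fold change of -2.74 (adjusted p = 2.51e-09) with siRNA1 and -3.73 (adjusted p = 5.34e-11) with siRNA2. VIM, a mesenchymal marker, was at 4368 to 4771 CPM with siRNA1, 4013 to 4162 with siRNA2 and 4530 to 4942 with the control siRNA, with no overlap between siRNA2 and the other groups. CD44, also a marker of this line, was at 621 to 675 CPM with siRNA1 and 898 to 960 with siRNA2, against 779 to 877 with the control siRNA. CDH1, an epithelial marker, averaged 1.80 CPM with siRNA1 and 1.11 with siRNA2, against 0.602 with the control siRNA. ESR1 was at or below 0.955 CPM in every library, and PGR at or below 0.0582. Of the leukocyte markers, CD68 was at 0.393 to 0.462 CPM with siRNA1 and 0.66 to 1.11 CPM with siRNA2, against 0.294 to 0.462 CPM with the control siRNA. CD3E was at 0 counts in all 9 libraries, and PTPRC was above 0 in siRNA1 library 2 alone, at 0.0562 CPM. The 3 endothelial markers summed to 3.82 to 5.45 CPM with siRNA1 and 8.53 to 9.78 CPM with siRNA2, against 4.94 to 7.59 CPM with the control siRNA. Most of this sum was PECAM1, which averaged 3.60 CPM with siRNA1 and 8.41 with siRNA2, against 5.49 with the control siRNA. CDH5 was at 0.190 to 0.411 CPM with siRNA1 and 0.107 to 0.524 with siRNA2, against 0 to 0.0617 with the control siRNA. VWF overlapped in all groups. The 5 fibroblast markers summed to 48.7 to 57.7 CPM with siRNA1 and 68.5 to 72.0 with siRNA2, against 8.09 to 11.3 with the control siRNA. COL1A1 made up most of that sum. PDGFRB averaged 7.57 CPM with siRNA1 and 6.84 CPM with siRNA2, against 1.23 CPM with the control siRNA. COL1A2 averaged 0.0593 CPM with siRNA1 and 2.07 CPM with siRNA2, and was at 0 in all control libraries. DCN reached at most 0.0633 CPM with siRNA1, was at 0.107 to 0.305 CPM with siRNA2 and was at 0 in all control libraries, and LUM was at or below 0.0633 CPM in every library. The part of these markers in the results below was not tested. In bulk RNA, fewer cells that express a gene and less RNA per cell cannot be told apart.

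AMD1, SRM and AZIN1 fell and SAT1 rose with both MILIP siRNAs. ODC1 fell to 48.5% of its control level with siRNA1 and was not called with siRNA2. SRM fell most with siRNA2, to 45.6%, and SAT1 rose most with siRNA2, 2.23-fold. SMOX fell with siRNA1 and rose slightly with siRNA2. With siRNA1 6 of the 10 genes were called, 5 lower and 1 higher, where 50.4% of all tested genes were called, 25.3% lower and 25.1% higher. With siRNA2 8 of 10 were called, 5 lower and 3 higher, where 56.1% of all tested genes were called, 28.9% lower and 27.2% higher. Against siRNA1, siRNA2 libraries had 8 of 10 called, 3 lower and 5 higher, where 60.4% of all tested genes were called, 32.0% lower and 28.4% higher. The median log2 fold change of the 10 genes was -0.24 with siRNA1 and -0.14 with siRNA2, beside 0.0032 and -0.011 over all tested genes. The median size of the change without its sign was 0.37 and 0.31, beside 0.31 and 0.37 over all tested genes. Both siRNAs are set against the same 3 control libraries.

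**Figure D1:**
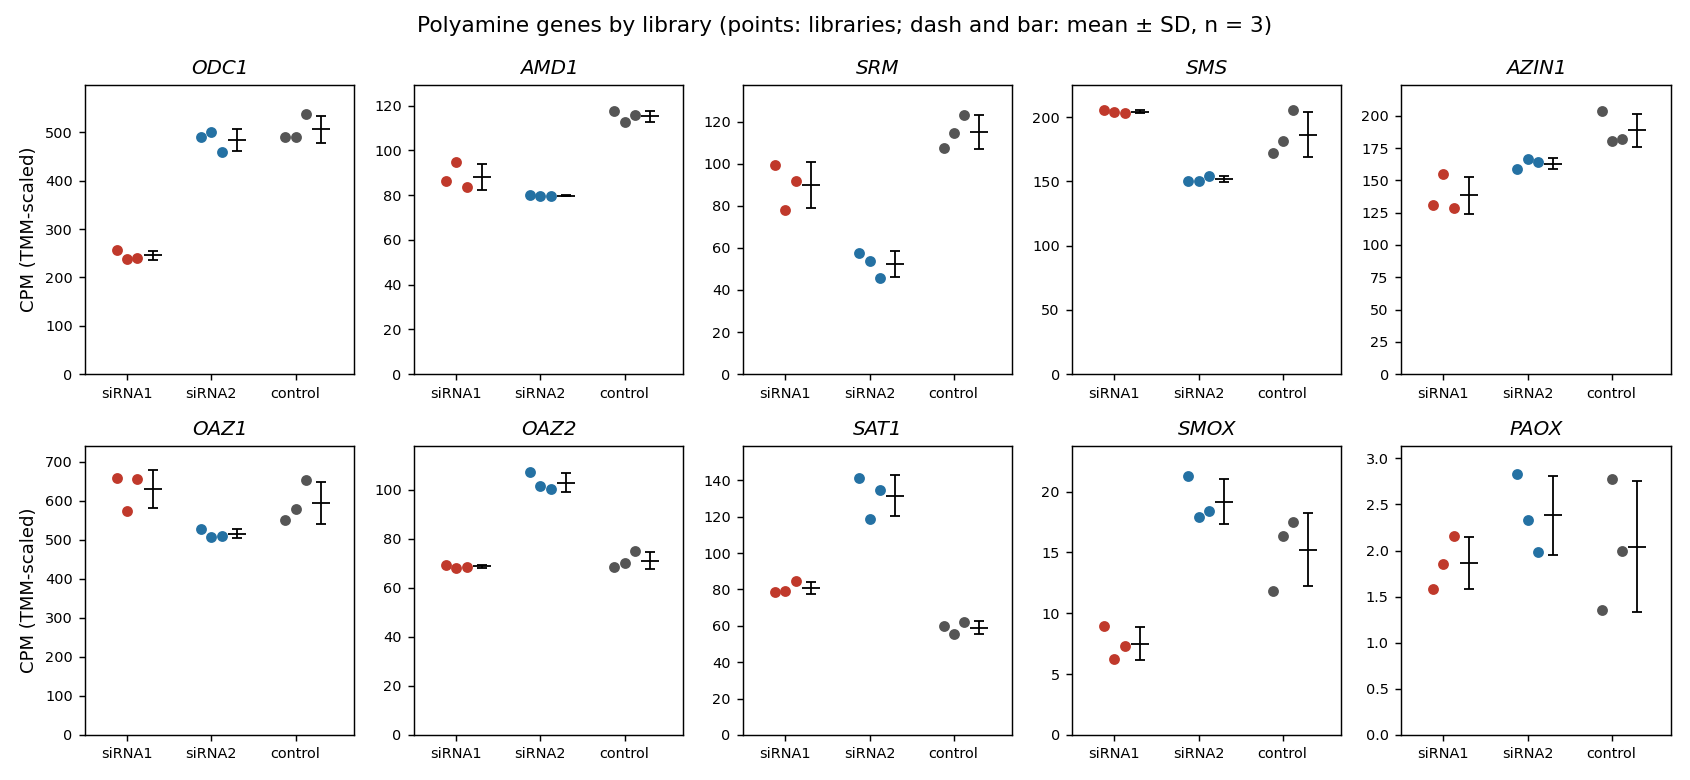
TMM-scaled CPM (linear axes from 0) of the 10 genes in the siRNA1, siRNA2 and control libraries, 1 point per library, with mean ± SD (n = 3) as dash and bar. ODC1 sits at 239 to 256 CPM with siRNA1 and at 458 or more in the other groups, and SAT1 is highest with siRNA2, lower with siRNA1 and lowest with the control siRNA.

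ODC1, the decarboxylase that makes putrescine, was at 256, 239 and 241 CPM in siRNA1 libraries 1 to 3 and at 491, 501 and 458 CPM in siRNA2 libraries, against 491, 489 and 539 CPM in control libraries. The siRNA1 libraries lay below every other library, while siRNA2 and control libraries overlapped. The log2 fold change with siRNA1 was -1.05 (SE 0.0576, adjusted p = 1.37e-13). With siRNA2 it was -0.066 (95% interval -0.18 to 0.051, adjusted p = 0.336). The siRNAs differed from each other by 0.98 on the log2 scale (SE 0.0575, adjusted p = 2.29e-13), higher with siRNA2. The gene lies on chromosome 2 at 10439968 to 10448327 on the minus strand in the GRCh38 coordinates of the table. A small nucleolar RNA gene inside it, SNORA80B, had at most 3 counts in any library.

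AMD1 encodes S-adenosylmethionine decarboxylase (chromosome 6, 110874770 to 110898879, plus strand). It was at 86.3, 94.6 and 83.4 CPM with siRNA1 and 80.0, 79.4 and 79.8 CPM with siRNA2, against 118, 113 and 116 CPM with the control siRNA. Both siRNA groups lay below all control libraries. Its log2 fold change with siRNA1 was -0.39 (SE 0.063, adjusted p = 1.38e-05). With siRNA2 the value was -0.53 (SE 0.0632, adjusted p = 9.86e-08). Every siRNA2 library was lower than every siRNA1 library, but this difference of -0.14 on the log2 scale (95% interval -0.28 to -0.013) had an adjusted p of 0.0535. It was called when siRNA1 library 3 was left out (-0.18, adjusted p = 0.0342) and with limma on FPKM (adjusted p = 0.0421 and 0.0401).

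SRM, the spermidine synthase (chromosome 1, 11054584 to 11060020, minus strand), was at 99.4, 78.2 and 92.0 CPM with siRNA1 and 57.8, 53.9 and 45.7 CPM with siRNA2, against 107, 115 and 123 CPM with the control siRNA. The 3 groups did not overlap, and siRNA2 libraries were the lowest. SRM had a log2 fold change with siRNA1 of -0.36 (SE 0.0848, adjusted p = 0.000997). With siRNA2 it was larger, -1.13 (SE 0.0873, adjusted p = 5.39e-11). The siRNA2 libraries were lower than the siRNA1 libraries by -0.77 (SE 0.0875, adjusted p = 3.39e-08).

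SMS, the spermine synthase (chromosome X, 21940709 to 21994837, plus strand), fell with siRNA2 and was not called with siRNA1, where its value was positive. Its libraries stood at 205, 204 and 203 CPM with siRNA1 and 150.5, 150.1 and 154 CPM with siRNA2, against 172, 181 and 206 CPM with the control siRNA. Control library 3 overlapped the siRNA1 libraries, and all siRNA2 libraries were below the control libraries. In log2 fold change SMS had 0.13 with siRNA1 (95% interval 0.0040 to 0.26, adjusted p = 0.0803) and -0.30 with siRNA2 (SE 0.0622, adjusted p = 0.000232). The siRNA1 value was called without control library 3 (0.19, adjusted p = 0.00576), at a minimum mean FPKM of 1 (adjusted p = 0.0374) and with limma on FPKM (adjusted p = 0.0349 and 0.0352). The siRNA2 libraries were lower than the siRNA1 libraries by -0.43 (SE 0.062, adjusted p = 1.67e-06).

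The windows around the starts of ODC1, SRM and SAT1 are shown because ODC1 was called lower with siRNA1 alone, SRM fell with both siRNAs and SAT1 rose with both. RefSeq windows of 250 bases before to 50 after a start (GRCh38.p14) were at hand for 7 of the 10 genes, ODC1, SRM, SMS, SAT1, AMD1, OAZ1 and OAZ2, and not for AZIN1, SMOX and PAOX. The letters CACGTG, the core of the E-box that MYC and MAX bind and a motif equal to its own reverse complement, were searched on both strands. They occur in 7.26% of all 35116 windows and in at least 1 window of 8.78% of 27305 genes. Among the 7 genes with a window they occur in ODC1 and SRM. The windows of SMS, SAT1, AMD1, OAZ1 and OAZ2 do not hold them. AMD1 also fell with both siRNAs, and SMS and OAZ1 fell with siRNA2, and their windows are not printed. ODC1 holds them 2 times in the window of its downstream start, beginning at -29 and at 6 from that start, and SRM once, beginning at -199. The ODC1 downstream and SRM windows have the highest G and C content among the windows of these genes, 80.7% and 82%. The shares over all windows were not matched for that. A match is a description of letters and not of a bound site. Capitals mark CACGTG, and each line runs 5′ to 3′ on the gene's own strand.
ODC1 downstream start, chr2:10447963-10448262, minus strand: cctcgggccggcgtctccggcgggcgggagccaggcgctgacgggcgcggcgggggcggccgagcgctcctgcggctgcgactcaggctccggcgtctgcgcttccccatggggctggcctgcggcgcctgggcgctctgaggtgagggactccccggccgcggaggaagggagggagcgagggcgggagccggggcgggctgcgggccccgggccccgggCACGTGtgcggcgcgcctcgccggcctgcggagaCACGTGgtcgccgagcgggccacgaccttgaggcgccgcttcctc
ODC1 upstream start, chr2:10448278-10448577, minus strand: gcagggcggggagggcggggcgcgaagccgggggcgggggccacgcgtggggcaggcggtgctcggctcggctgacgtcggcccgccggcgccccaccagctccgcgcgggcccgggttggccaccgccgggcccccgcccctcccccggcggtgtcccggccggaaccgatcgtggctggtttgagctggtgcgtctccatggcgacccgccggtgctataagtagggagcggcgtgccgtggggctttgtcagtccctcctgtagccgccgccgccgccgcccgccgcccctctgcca
SRM, chr1:11059969-11060268, minus strand: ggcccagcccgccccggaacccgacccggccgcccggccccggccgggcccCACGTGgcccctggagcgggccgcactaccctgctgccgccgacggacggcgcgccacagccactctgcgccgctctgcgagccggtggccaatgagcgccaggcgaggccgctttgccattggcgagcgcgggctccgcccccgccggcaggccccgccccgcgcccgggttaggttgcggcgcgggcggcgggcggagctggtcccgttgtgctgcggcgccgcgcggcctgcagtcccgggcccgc
SAT1, chrX:23782923-23783222, plus strand: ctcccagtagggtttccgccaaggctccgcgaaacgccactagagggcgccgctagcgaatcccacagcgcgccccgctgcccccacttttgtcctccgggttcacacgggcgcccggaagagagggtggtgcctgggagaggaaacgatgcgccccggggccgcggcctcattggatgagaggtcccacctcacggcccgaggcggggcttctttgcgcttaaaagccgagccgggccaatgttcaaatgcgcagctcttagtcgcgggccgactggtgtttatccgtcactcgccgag

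The second motif, TATAA on both strands, occurs in 20.4% of all windows and in at least 1 window of 24.2% of 27305 genes. Among the 7 genes it occurs in the ODC1 upstream window at -32, in both AMD1 windows near the main start, at -28 and -29, and in the OAZ1 window, where it begins at 7. MYC itself, searched as a pathway gene, was at 113 ± 5.07 CPM with siRNA1 and 85.7 ± 2.43 CPM with siRNA2, against 125 ± 4.3 CPM with the control siRNA (SD, n = 3 each). It fell with siRNA2 (log2 fold change -0.55, adjusted p = 4.23e-08). With siRNA1 the value was -0.15 (adjusted p = 0.05, just above the threshold before rounding), and it was called in 5 alternatives: median-of-ratios scaling, DESeq2, and without control library 1, control library 3 or siRNA1 library 1. ODC1 had -1.05 with siRNA1 and -0.066, not called, with siRNA2, and SRM had -0.36 and -1.13. The part of MYC in these changes was not tested. MAX, the partner of MYC, rose with siRNA2 (log2 fold change 0.22, adjusted p = 0.00921) and was not called with siRNA1 (0.15, adjusted p = 0.0716). MYCN had 0 counts in every library, which allows up to 3 counts or 0.152 to 0.196 CPM per library, a bound for counting error alone.

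**Figure D2:**
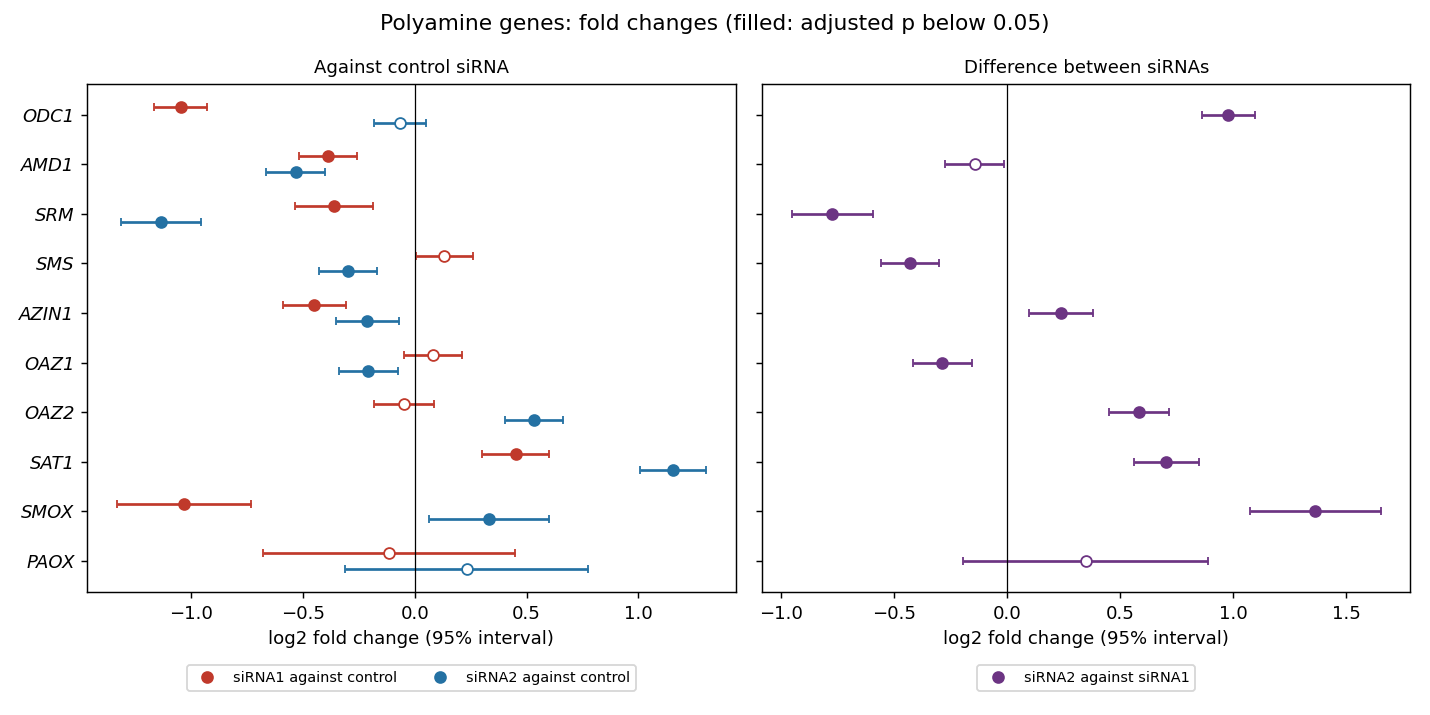
Log2 fold changes with 95% intervals of the 10 genes against the control siRNA (left) and of siRNA2 against siRNA1 (right); filled points have an adjusted p below 0.05. ODC1 at -1.05 and SMOX at -1.03 stand out with siRNA1, and SRM at -1.13 and SAT1 at 1.15 with siRNA2.

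Among the regulators of ornithine decarboxylase, the antizyme inhibitor AZIN1 fell with both siRNAs, OAZ1 fell with siRNA2 and OAZ2 rose with siRNA2. AZIN1 (chromosome 8, 102826308 to 102893864, minus strand) was at 131, 155 and 129 CPM with siRNA1 and 158, 167 and 164 CPM with siRNA2, against 203, 181 and 182 CPM with the control siRNA. No siRNA library reached the control range, and siRNA1 libraries were below siRNA2 libraries. AZIN1 had a log2 fold change of -0.45 with siRNA1 (SE 0.0688, adjusted p = 6.48e-06). For siRNA2 the fall was smaller, -0.21 (SE 0.0683, adjusted p = 0.0106). The siRNA2 call was lost without control library 1 (-0.14, adjusted p = 0.129) and without siRNA2 library 1 (-0.19, adjusted p = 0.0501). The siRNAs differed by 0.24 (adjusted p = 0.00443). AZIN1 overlaps AZIN1-AS1 on the opposite strand, which had 8 to 35 counts per library where AZIN1 had 2073 to 3292.

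OAZ1, the main antizyme (chromosome 19, 2269509 to 2273490, plus strand), was at 658, 573 and 657 CPM with siRNA1 and 529, 507 and 511 CPM with siRNA2, against 551, 580 and 654 CPM with the control siRNA. Libraries with siRNA1 overlapped the control range, and those with siRNA2 lay below it. Fitted log2 fold changes were 0.081 with siRNA1 (95% interval -0.050 to 0.21, adjusted p = 0.304) and -0.21 with siRNA2 (SE 0.0636, adjusted p = 0.0075). Without control library 3 the siRNA1 value was called (0.14, adjusted p = 0.0452). With siRNA2 OAZ1 was lower than with siRNA1 by -0.29 (adjusted p = 0.000368). JSRP1, which overlaps OAZ1 on the opposite strand, had 13 to 31 counts per library.

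OAZ2, a second antizyme (chromosome 15, 64687573 to 64703281, minus strand), was at 69.3, 68.2 and 68.7 CPM with siRNA1 and 107, 101 and 100.2 CPM with siRNA2, against 68.4, 70.1 and 75.1 CPM with the control siRNA. The siRNA2 libraries were above all others, and siRNA1 overlapped control. On the log2 scale OAZ2 had -0.050 with siRNA1 (95% interval -0.18 to 0.084, adjusted p = 0.549) and 0.53 with siRNA2 (SE 0.0638, adjusted p = 1.14e-07). The siRNAs differed by 0.58 (SE 0.0637, adjusted p = 1.93e-08). So OAZ1 and OAZ2, which encode proteins of 1 family, moved in opposite directions with siRNA2.

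Of the genes that break polyamines down, SAT1 rose with both siRNAs. SAT1 encodes spermidine and spermine N1-acetyltransferase (chromosome X, 23783173 to 23786226, plus strand). It was at 78.6, 79.2 and 84.5 CPM with siRNA1 and 141, 119 and 135 CPM with siRNA2, against 59.9, 55.3 and 61.9 CPM with the control siRNA. The 3 groups did not overlap. The rise with siRNA1 was 0.45 in log2 fold change (SE 0.0725, adjusted p = 1.2e-05). The rise with siRNA2 was 1.15 (SE 0.0716, adjusted p = 1.02e-12), above that with siRNA1 by 0.70 (SE 0.0698, adjusted p = 3.71e-09). SAT1 was the one gene of the 10 that was called higher with both.

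SMOX, the spermine oxidase (chromosome 20, 4120980 to 4187747, plus strand), was at 8.93, 6.23 and 7.29 CPM with siRNA1 and 21.3, 17.9 and 18.4 CPM with siRNA2, against 11.8, 16.4 and 17.5 CPM with the control siRNA. The siRNA1 libraries lay below and the siRNA2 libraries just above the control range. SMOX fell with siRNA1 by a log2 fold change of -1.03 (SE 0.146, adjusted p = 2e-06). It rose with siRNA2 by 0.33 (SE 0.131, adjusted p = 0.0334). The siRNA2 call rests on single libraries. Without control library 1 the value was 0.20 (adjusted p = 0.201) and without siRNA2 library 1 it was 0.25 (adjusted p = 0.163). With limma on FPKM it was 0.30 and 0.34 (adjusted p = 0.0701 and 0.0791 at pseudocounts of 1 and 0.1). The difference between the siRNAs was 1.36 (SE 0.141, adjusted p = 7.63e-09), with counts of 316 to 398 with siRNA2 and 111 to 142 with siRNA1.

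PAOX, the oxidase of acetylated polyamines (chromosome 10, 133379261 to 133391694, plus strand), was rare, with 25, 33 and 42 counts with siRNA1 and 53, 46 and 34 with siRNA2, against 22, 42 and 34 with the control siRNA. The 3 groups overlapped. The log2 fold change was -0.12 with siRNA1 (95% interval -0.68 to 0.45, adjusted p = 0.755) and 0.23 with siRNA2 (95% interval -0.31 to 0.77, adjusted p = 0.476). Both intervals include falls and rises, so at this depth the direction for PAOX is not settled. AL360181.3, which overlaps PAOX on the same strand, had 23 to 45 counts per library, about as many as PAOX, so how reads were split between them is uncertain. Rows named as pseudogenes of AMD1, OAZ1 and SRM had at most 4 counts in any library.

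Per exonic length, ODC1 and OAZ1 were the most abundant of the 10 in control cells. The deposited FPKM values, counts per kilobase of exonic gene size and per 1e+06 counts, allow genes to be compared with each other. Control means were 180 ± 9.1 for ODC1, 172 ± 14.4 for OAZ1, 91.3 ± 7.95 for SMS, 60.4 ± 3.8 for SRM, 31.6 ± 2.31 for AZIN1, 23.5 ± 1.33 for SAT1, 11.2 ± 0.285 for AMD1, 9.21 ± 0.399 for OAZ2, 5.13 ± 0.992 for SMOX and 0.9 ± 0.31 FPKM for PAOX (SD, n = 3 each). Among neighbours in this order only the libraries of ODC1 (174 to 190 FPKM) and OAZ1 (160 to 188 FPKM) overlapped. With siRNA1 the order of FPKM began with OAZ1 (185 ± 13.2), SMS (102 ± 0.515) and ODC1 (88.9 ± 2.95), SAT1 (32.7 ± 1.3) stood above AZIN1 (23.6 ± 2.63), and OAZ2 (9.06 ± 0.02) and AMD1 (8.74 ± 0.627) overlapped. With siRNA2 SAT1 (52.3 ± 4.21 FPKM) stood above SRM (27.5 ± 2.97) and AZIN1 (27.3 ± 0.976), which overlapped each other.

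The exonic gene size of the table joins all annotated exons, and for some of these genes it is far above the length of any coding transcript. It is 10193 bases for AMD1, 7671 for OAZ2 and 3436 for OAZ1, where the longest coding transcripts of GENCODE v29 have 3438, 1934 and 1148 bases. Divided by those transcript lengths instead, an alternative chosen after seeing the data, the control levels were 514 FPKM for OAZ1, 189 for ODC1, 55.0 for SAT1, 39.7 for AZIN1, 36.5 for OAZ2 and 33.3 for AMD1. OAZ1 then stands above ODC1, SAT1 above AZIN1, and OAZ2 above AMD1. Fold changes within a gene do not depend on this length.

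**Figure D3:**
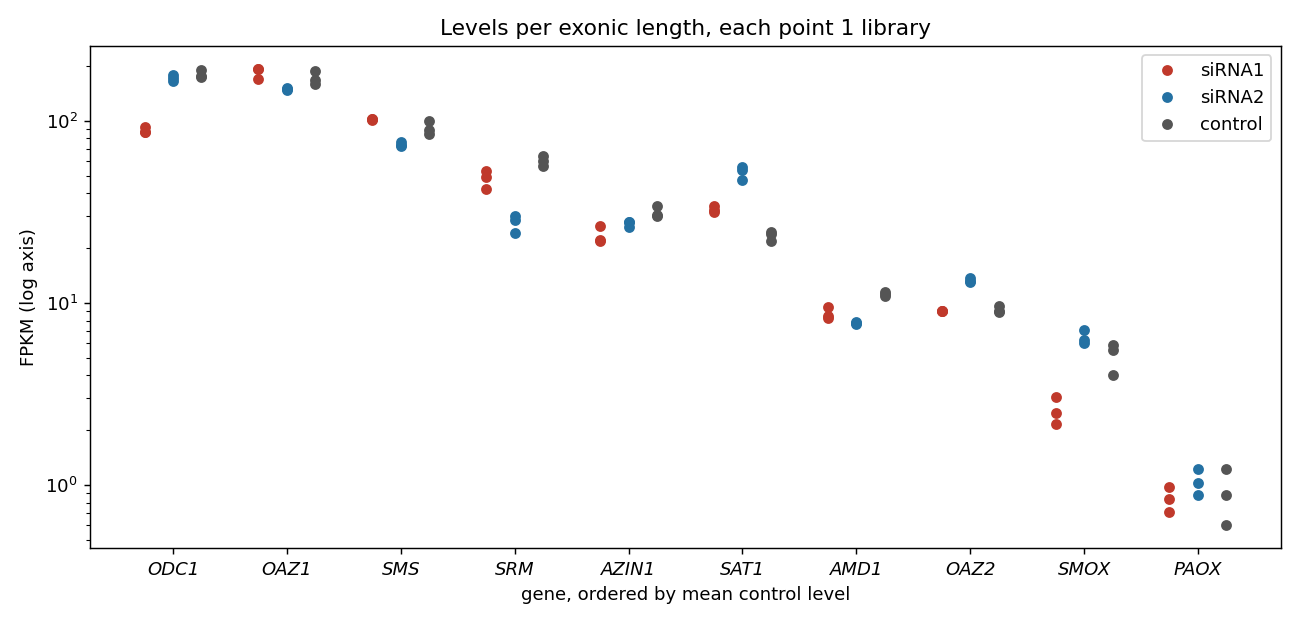
Deposited FPKM (log axis) of the 10 genes, 1 point per library, with genes ordered by their control mean and groups side by side as siRNA1, siRNA2 and control. The levels span from about 0.6 FPKM for PAOX to 193 FPKM for OAZ1.

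The balance of ODC1 transcripts and those of its main antizyme, OAZ1, differed between the siRNAs. The FPKM ratio of ODC1 to OAZ1 was 0.479, 0.513 and 0.451 in siRNA1 libraries and 1.14, 1.22 and 1.10 in siRNA2 libraries, against 1.10, 1.04 and 1.01 in control libraries. The siRNA1 libraries lay far below all others, and the siRNA2 libraries lay just above every control library. The ratio of OAZ2 to OAZ1 averaged 0.0491 with siRNA1 and 0.0895 with siRNA2, against 0.0537 with the control siRNA. For AZIN1 to OAZ1 the means were 0.129 with siRNA1 and 0.183 with siRNA2, against 0.185 with the control siRNA. The ratio of SMS to SRM was 1.93, 2.43 and 2.07 with siRNA1 and 2.43, 2.60 and 3.16 with siRNA2, against 1.50, 1.48 and 1.56 with the control siRNA, so spermine synthase transcripts stood higher against spermidine synthase transcripts in every siRNA library. The ratio of SAT1 to SRM, a breakdown enzyme against a synthase, was 0.6, 0.768 and 0.696 with siRNA1 and 1.85, 1.67 and 2.23 with siRNA2, against 0.422, 0.366 and 0.381 with the control siRNA. These ratios carry no test, and their size depends on the gene lengths used. The 10 genes together took 0.153% to 0.16% of counts with siRNA1 and 0.167% to 0.17% with siRNA2, against 0.178% to 0.195% with the control siRNA, a sum led by OAZ1 and ODC1.

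**Figure D4:**
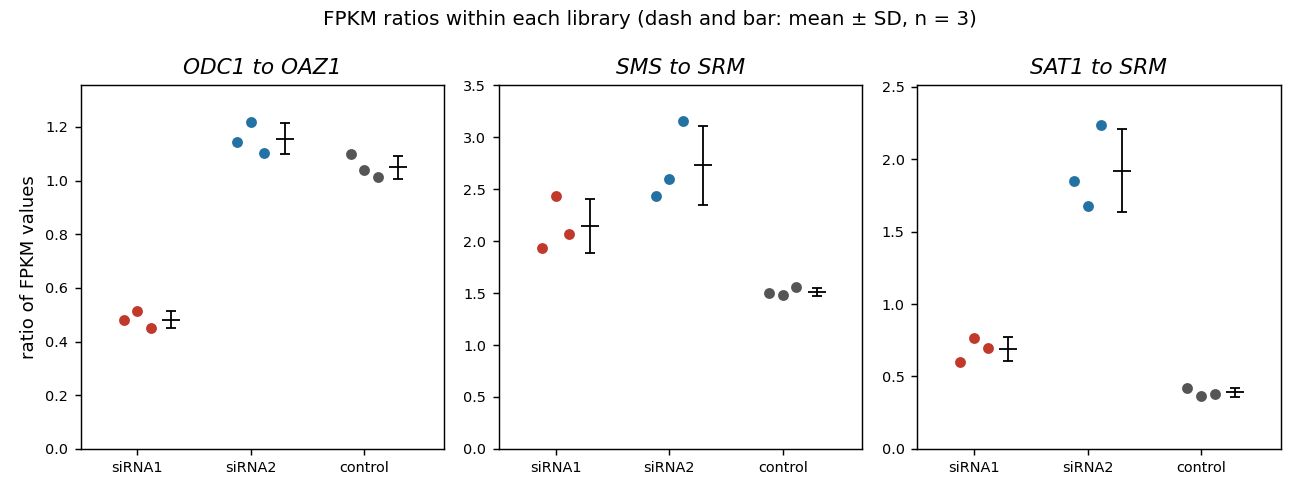
Ratios of FPKM values within each library (linear axes from 0) for ODC1 to OAZ1, SMS to SRM and SAT1 to SRM in siRNA1, siRNA2 and control libraries, with mean ± SD (n = 3). ODC1 to OAZ1 is near 0.48 with siRNA1 and above 1 elsewhere, and SAT1 to SRM reaches 1.67 to 2.23 with siRNA2.

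Words in the 3 prime UTR that go with lower transcripts after each siRNA are given here because AMD1, AZIN1 and SAT1 hold one. The words AATTCCA for siRNA1 and GACCCTA for siRNA2, both present in MILIP transcripts, had been picked in an earlier search on these same fold changes, so the medians below are no separate evidence. AATTCCA was searched on the transcript strand only and lies in the 3 prime UTR of 18.3% of 12589 tested genes, whose median log2 fold change with siRNA1 was -0.20, beside 0.040 in genes without it. GACCCTA lies in 5.99% of them, whose median with siRNA2 was -0.29, beside 0.014. With the other siRNA the differences were smaller. Genes with AATTCCA had a median of -0.0186 with siRNA2, beside 0.0028, and genes with GACCCTA had -0.0725 with siRNA1, beside 0.0072. Among the 10 genes the siRNA1 word was found in AMD1 and AZIN1, a share close to the 18.3% above, and the siRNA2 word in SAT1, which rose with siRNA2. AMD1 and AZIN1 have the longest 3 prime UTRs of the 10, at 2097 and 2210 bases, with OAZ2 next at 1194. A longer UTR has more room for a word, and the medians were not matched for UTR length. AMD1 and AZIN1 fell with siRNA1, and both were also called lower with siRNA2, whose word they do not hold, AMD1 by -0.53 with siRNA2 and -0.39 with siRNA1. ODC1, which fell most with siRNA1, and SRM, which fell most with siRNA2, hold neither word. No siRNA sequence was used here, and the part of these words in any change was not tested. The sites of AMD1 and SAT1 are printed 5′ to 3′ with the word in capitals, the SAT1 site lying in the UTR of only some of its annotated coding transcripts.
AMD1, word at chr6:110894976-110894982, plus strand: tagaataataaAATTCCAaaatactcaat
SAT1, word at chrX:23784224-23784230, plus strand: ggttcttgtttGACCCTAacgtaacagtt

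A wider list of 35 polyamine pathway genes held 31 that could be tested. Calls were made for 16 of the 31 with siRNA1, 6 higher and 10 lower, and for 24 with siRNA2, 12 higher and 12 lower. Read against the shares of all tested genes given above, 50.4% and 56.1%, the first is near the background. The median log2 fold change of the 31 was 0.089 with siRNA1 and 0.078 with siRNA2, beside 0.0032 and -0.011 over all tested genes. ARG1, MTAP, ATP13A4 and MYCN were not tested. MTAP, the phosphorylase that salvages the methylthioadenosine left by both synthases, had 1 count in siRNA2 library 1 and 0 in all others. In the libraries with 0 counts, up to 3 counts are allowed.

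In the supply of arginine and ornithine, siRNA1 gave calls for all 7 tested genes, 3 higher and 4 lower, and siRNA2 for 5, of which 2 were higher and 3 lower. Over all tested genes 50.4% were called with siRNA1 and 56.1% with siRNA2, and the siRNA2 count is not far from that share. ASS1, argininosuccinate synthase, rose to 183 ± 10.4 CPM with siRNA1 and was at 63.8 ± 2.6 with siRNA2, against 55.9 ± 2.3 CPM with the control siRNA (log2 fold changes of 1.71, adjusted p = 1.7e-16, and 0.19, adjusted p = 0.0191). The small siRNA2 call was lost without control library 3, siRNA2 library 1 or siRNA2 library 3 (adjusted p = 0.0558, 0.086 and 0.0511). ASL, the lyase of the next step, fell with siRNA1 (-0.61, adjusted p = 3.74e-05) and had -0.22 with siRNA2 (adjusted p = 0.0756; without control library 1 it was -0.29, adjusted p = 0.0257). ARG2, an arginase that releases ornithine, fell with siRNA1 to 5.72 ± 0.824 CPM, was at 12.3 ± 0.544 CPM with siRNA2, and had 10.9 ± 1.51 CPM in control libraries (-0.94, adjusted p = 3.51e-06, and 0.17, adjusted p = 0.26). PYCR1, which makes proline, rose with siRNA1 (0.82, adjusted p = 7.61e-10) and fell with siRNA2 (-0.21, adjusted p = 0.0174). That fall was lost without the filter (adjusted p = 0.0683) and without control library 2 or siRNA2 library 1 (adjusted p = 0.0807 and 0.0852). AGMAT, named for agmatine breakdown to putrescine, fell with both at 13 to 57 counts per library (-1.09, adjusted p = 0.00181, and -1.79, adjusted p = 1.25e-05). ARG2 and AGMAT overlap more abundant genes on the opposite strand, VTI1B and DNAJC16, and the counting is not stated to use strand.

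The methionine cycle and methylthioadenosine salvage genes fell with siRNA2 in 5 of 7 tested cases and with siRNA1 in 2, and none was called higher. Over all tested genes 28.9% were lower with siRNA2 and 25.3% with siRNA1, and the siRNA1 count is near that share. MAT2A, which makes S-adenosylmethionine, was at 257 ± 2.37 CPM with siRNA1 and 253 ± 4.92 CPM with siRNA2, against 386 ± 4.32 CPM with the control siRNA (log2 fold changes of -0.59, adjusted p = 7.55e-10, and -0.61, adjusted p = 2.8e-10). It overlaps GGCX on the opposite strand. AHCY, which removes S-adenosylhomocysteine, fell with siRNA2 to 180 ± 2.27 CPM, where siRNA1 libraries had 359 ± 25.9 and control libraries 337 ± 20.3 CPM (-0.90, adjusted p = 5.32e-12). ENOPH1, an enzyme of the salvage chain, fell with siRNA2 to 43.8 ± 0.422 CPM, where siRNA1 libraries had 101 ± 3.58 and control libraries 104 ± 2.65 CPM (-1.24, adjusted p = 3.33e-14). APIP, of the same chain, fell with siRNA2 (-0.61, adjusted p = 3.5e-06) and overlaps PDHX on the opposite strand. With siRNA1 AHCY had 0.092 (adjusted p = 0.214), ENOPH1 -0.035 (adjusted p = 0.661) and APIP 0.17 (adjusted p = 0.115). Leaving out 1 library brought a call for AHCY (without siRNA1 library 2, adjusted p = 0.0348) and for APIP (without control library 3 or siRNA1 library 3, adjusted p = 0.016 and 0.0405).

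**Figure D5:**
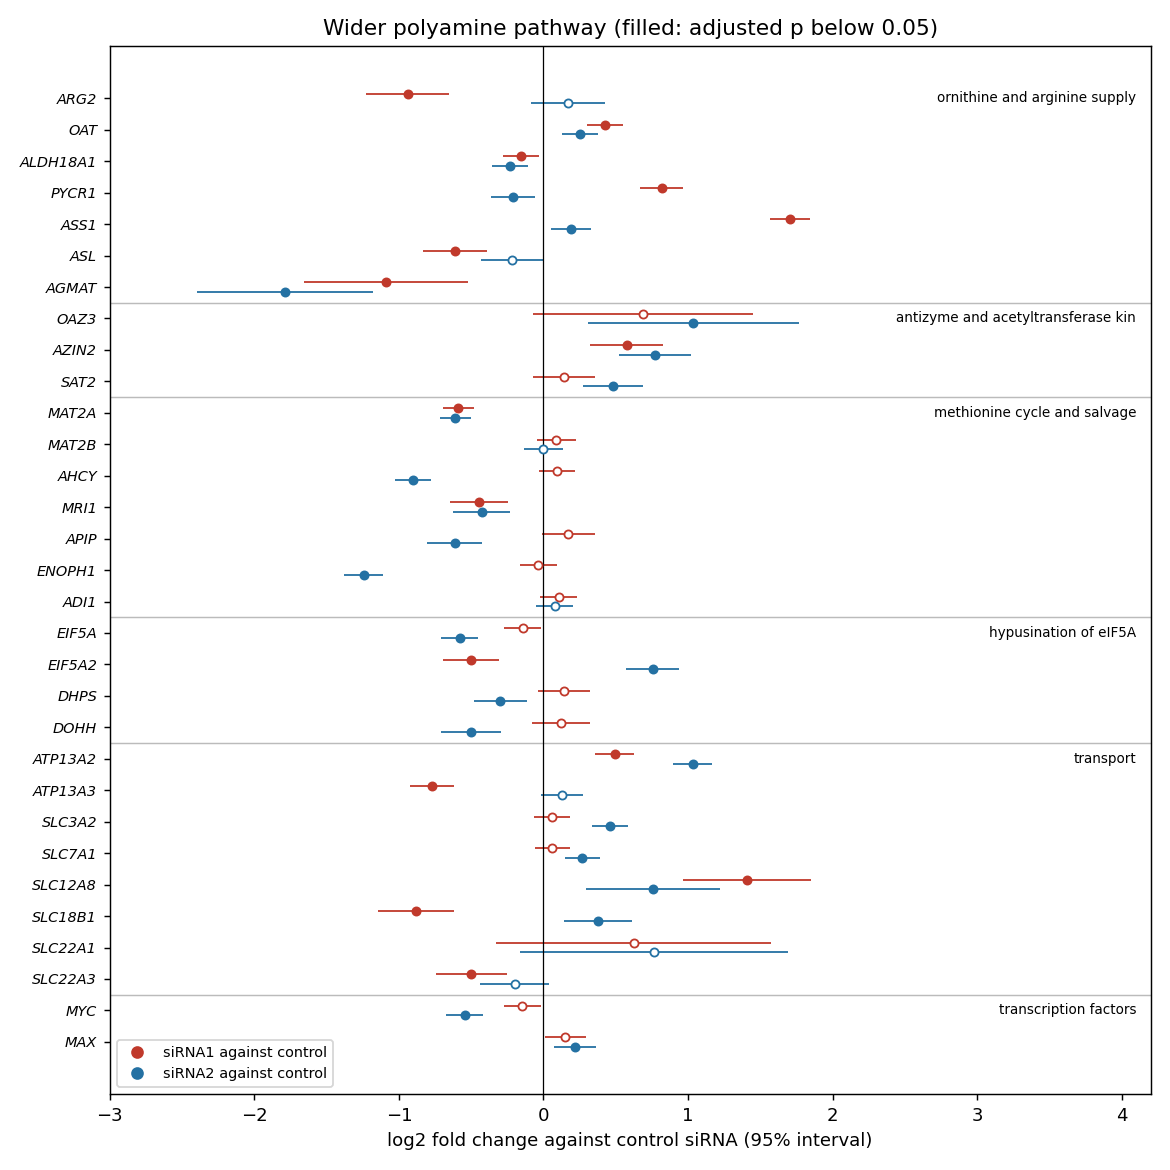
Log2 fold changes with 95% intervals against the control siRNA for the 31 tested genes of the wider pathway list, grouped by role; filled points have an adjusted p below 0.05. ASS1 at 1.71 with siRNA1 is the highest point and AGMAT at -1.79 with siRNA2 the lowest.

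Spermidine is the donor for hypusine, a modified amino acid of the translation factor eIF5A, and of its 4 genes here 4 were called with siRNA2, 1 higher and 3 lower, and 1 with siRNA1, which was lower. The shares over all tested genes were 56.1% called with siRNA2 and 50.4% with siRNA1. EIF5A fell with siRNA2 to 621 ± 17.1 CPM, where siRNA1 libraries had 840 ± 62.9 and control libraries 927 ± 78.4 CPM (log2 fold change -0.58, adjusted p = 1.85e-08). With siRNA1 it had -0.14 (adjusted p = 0.057), a value called with the replicate block (adjusted p = 0.0475), without a filter (adjusted p = 0.0286), and without control library 1 or siRNA1 library 1 (adjusted p = 0.0134 and 0.0137). EIF5A may share reads with the near-identical copies EIF5AL1 and EIF5AP4, which held 2313 and 790 counts over the 9 libraries, beside 123925 for EIF5A. DOHH, which completes hypusine, fell with siRNA2 (-0.50, adjusted p = 0.000133) and had 0.12 with siRNA1 (adjusted p = 0.326; without siRNA1 library 2 it was 0.24, adjusted p = 0.0202). EIF5A2, a paralog of EIF5A, fell with siRNA1 to 25 ± 3.44 CPM and rose with siRNA2 to 59.7 ± 4.31 CPM, against 35.4 ± 1.73 CPM with the control siRNA (-0.50, adjusted p = 7.58e-05, and 0.76, adjusted p = 6.98e-08).

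Of 8 tested transport genes, 5 were called higher and none lower with siRNA2, and 2 higher and 3 lower with siRNA1. Over all tested genes 27.2% were higher and 28.9% lower with siRNA2, and 25.1% higher and 25.3% lower with siRNA1, and the siRNA1 counts are close to these shares. ATP13A2, a lysosomal exporter of polyamines, rose with both. Libraries had 207 ± 20.9 CPM with siRNA1 and 301 ± 6.81 CPM with siRNA2, against 147 ± 6.32 CPM with the control siRNA (log2 fold changes of 0.49, adjusted p = 8.09e-07, and 1.03, adjusted p = 1.64e-12). Its relative ATP13A3 fell with siRNA1 (-0.77, adjusted p = 3.52e-09) and had 0.13 with siRNA2 (adjusted p = 0.132), which was called without a filter (adjusted p = 0.0445) and without control library 1 (0.20, adjusted p = 0.031). SLC18B1, a vesicular polyamine transporter, fell with siRNA1 (-0.88, adjusted p = 2.55e-06) and rose with siRNA2 (0.38, adjusted p = 0.00642). SLC12A8 rose with both from low levels, at 4.66 ± 0.748 CPM with siRNA1 and 2.97 ± 0.449 CPM with siRNA2, against 1.76 ± 0.155 CPM with the control siRNA (1.41, adjusted p = 5.49e-06, and 0.76, adjusted p = 0.00595).

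The 3 relatives of the antizyme, antizyme inhibitor and acetyltransferase genes were OAZ3, AZIN2 and SAT2. Of these, 1 was called higher with siRNA1 and 3 with siRNA2, and none lower. Over all tested genes 25.1% were higher with siRNA1 and 27.2% with siRNA2. SAT2 had a log2 fold change of 0.14 with siRNA1 (adjusted p = 0.261) and 0.48 with siRNA2 (adjusted p = 0.000234). AZIN2 rose with both siRNAs, opposite to AZIN1. It was at 13.7 ± 2.17 CPM with siRNA1 and 15.8 ± 1.01 CPM with siRNA2, against 9.22 ± 0.108 CPM with the control siRNA (log2 fold changes of 0.57, adjusted p = 0.000345, and 0.77, adjusted p = 5.71e-06). OAZ3, an antizyme known from testis, had 8 to 27 counts per library and was called higher with siRNA2 (1.04, adjusted p = 0.0151). That call was lost without control library 1, control library 3 or siRNA2 library 3 (adjusted p = 0.0573, 0.084 and 0.0583), while with siRNA1 OAZ3 had 0.69 (adjusted p = 0.127; without control library 2 it was 1.06, adjusted p = 0.048). OAZ3 overlaps MRPL9 and TDRKH on the opposite strand, with far higher counts.

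The tested genes whose 9 library values lay closest to those of ODC1, after each gene's control mean was subtracted on the log2 CPM scale, were TYRO3, ERF and MCOLN2. They differed from ODC1 by a root mean square of 0.068, 0.082 and 0.086 over the 9 libraries, and their log2 fold changes were -1.02, -0.96 and -1.01 with siRNA1 and -0.0072, -0.11 and -0.029 with siRNA2. Closest to AMD1 were SRRM1, DHX9 and HNRNPA1, at 0.05, 0.05 and 0.052. Closest to SAT1 were HSPA5, the main chaperone of the endoplasmic reticulum, ALDH3B1 and TK2, at 0.062, 0.079 and 0.089, with log2 fold changes of 0.47, 0.40 and 0.45 with siRNA1 and 1.18, 1.27 and 1.07 with siRNA2. In all, 13431 genes were searched. The genes were picked on these same 9 library values, so the closeness of their fold changes is no separate evidence.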

How the data were processed

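The authors' deposited table gives a raw count per gene and library and an FPKM value made by the authors from it. Dividing each count by the exonic gene size and the library total gives 100% of the deposited FPKM values within 0.005. The submitters' processing notes name hg19 as build, and DESeq, HTSeq 0.6.1, Trimmomatic 0.30 and HISAT2 2.0.1 as software, without saying what each did. Gene positions fit GRCh38: 99.9% of 58394 identifiers overlap the same gene in GENCODE v29. Whether counting used strand is, in the sources used here, not given.

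The filter was filterByExpr with a minimum count of 10 and a minimum total of 15, and scaling was by TMM (factors 0.981 to 1.02). Genes were tested two-sided with edgeR 4.0.16 (quasi-likelihood, 1 fit of 3 groups, R 4.3.3), with Benjamini-Hochberg adjustment over the 15345 genes tested. Standard errors are the log2 fold change over the root of its F statistic. The 10 genes and the lists were chosen with earlier results of these data known. Named genes are the 10, MILIP, pathway genes called with either siRNA at a log2 fold change of at least 0.5 either way, MYC, and the 3 genes closest to ODC1, AMD1 and SAT1, leaving out clone names and pseudogenes. MAX, MTAP, MYCN and SAT2 were named after their values were seen. Alternatives were DESeq2 1.42.0, a minimum mean FPKM of 1, no filter, median-of-ratios scaling, limma 3.58.1 on log2(FPKM+1) and log2(FPKM+0.1), a replicate block, 2 groups alone, each library left out, and transcript length for FPKM. The depth of 15281220 to 19759371 counts makes 3 counts 0.152 to 0.196 CPM. Libraries of a group differed beyond sampling noise (mean chi-square 2.18 to 8.78 per gene), and no 2 were identical. The summed leukocyte marker list is not reported here.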

Additional observations from a re-analysis of the deposited data

Results flagged for a closer look

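SMOX, EIF5A2, SLC18B1 and PYCR1 went in opposite directions with the siRNAs. Each was called against the control siRNA with both, and the difference between the siRNAs was called too (edgeR, quasi-likelihood, Benjamini-Hochberg). SMOX was higher with siRNA2 than with siRNA1 by a log2 fold change of 1.36 (adjusted p = 7.63e-09), EIF5A2 by 1.26 (adjusted p = 9.13e-12) and SLC18B1 by 1.26 (adjusted p = 2.26e-09). PYCR1 was lower with siRNA2 by -1.03 (adjusted p = 5.88e-12). In each case all 3 libraries of siRNA2 lay on 1 side of all 3 of siRNA1. The siRNA2 calls of SMOX and PYCR1 against control depend on single libraries, and those of EIF5A2 and SLC18B1 kept their call in every alternative run. Both siRNAs lowered MILIP, and siRNA2 lowered it further than siRNA1 (log2 fold change -0.99, adjusted p = 0.0264), though their libraries overlapped. The cause of the opposite directions was not tested.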

How the results depend on the processing

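The number of the 10 genes called stayed within 6 to 8 with siRNA1, 6 to 8 with siRNA2 and 8 to 9 between the siRNAs over all alternatives, and leaving out 1 library gave the same ranges. For the wider list the ranges were 14 to 19, 21 to 25 and 18 to 22. For all genes they were 6545 to 7750, 7388 to 8925 and 7762 to 9634. Among the alternative values for single members of the 10, 492 kept direction and side of the threshold, 8 gained a call, 6 lost one and 1 changed sign. The sign change was PAOX with siRNA1, without control library 2, where values without 1 library ran from -0.34 to 0.15 and none was called. MAT2A between the siRNAs was -0.022 and turned to 0.0029 with median-of-ratios scaling, 0.0088 with no filter, 0.0030 with DESeq2 and 0.0014 with the 2 groups alone, and ran from -0.032 to 0.0015 without 1 library, never called. With the replicate block 6, 8 and 8 of the 10 genes were called in the 3 comparisons. In the labels, same-numbered libraries share only a number. Correlations of their deviations from the group mean lay between -0.042 and 0.092. With so few libraries these cannot settle whether the libraries were paired. The block changed no call of the 10 genes. Depth limits PAOX, AGMAT and OAZ3, with under 60 counts per library.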
